A study of Homo sapiens with 22 samples.

Results

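CDK inhibitors are a family of 7 genes whose proteins bind cyclin-dependent kinases (CDKs) and slow entry into the cell cycle. The 7 genes were taken by symbol from a table of 35237 genes and followed through all 22 libraries of the series. They comprise the CIP/KIP group (CDKN1A, CDKN1B and CDKN1C, encoding p21, p27 and p57) and the INK4 group (CDKN2A, CDKN2B, CDKN2C and CDKN2D, encoding p16 together with ARF, p15, p18 and p19). INK4 proteins bind CDK4 and CDK6 and keep them from pairing with D-type cyclins, which leaves the retinoblastoma protein active and E2F targets off. CIP/KIP proteins act more broadly, on complexes of CDK2 with cyclins E and A as well. In neuronal lineages the same proteins accompany withdrawal from the cell cycle during differentiation, and p27 and p57 also have roles outside the cycle.

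RNA was measured by sequencing in 2 established human lines of neuroblastoma, SK-N-AS and GIMEN, both called mesenchymal in the labels. Untreated SK-N-AS cells grew in DMEM with 10% serum (n = 4). Stage 1 was 5 µM PP121, an inhibitor of tyrosine and phosphoinositide kinases, for 4 days in 1% serum (S1D4, n = 4). Stage 2 moved such cells to Neurobasal medium with B27, 5 µM PP121 and 100 nM bufalin, a cardiac glycoside that blocks the sodium pump, and kept them there for 4 days (the S2D4 group, n = 4) or for 30 (the S2D30 group, n = 4). Untreated GIMEN cells grew in RPMI with 10% serum (n = 3), and the treated GIMEN group received 2.5 µM PP121 and 10 nM bufalin in RPMI with 1% serum for 30 days, without stage 1 (D30, n = 3). Every treated group differed from its control in drug, serum and time together. Stage 2 had no serum and also differed from untreated SK-N-AS in medium. The contributions of these cannot be told apart. Levels are given as CPM (counts scaled to a common library size) on 1 scaling of all 22 libraries. Changes are log2 fold changes with their standard error (SE) from edgeR, and a gene was called at a Benjamini-Hochberg adjusted p under 0.05 over all genes of the model.

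Library totals ran from 16456484 to 37506800 counts. The 7 mesenchymal markers PRRX1, FN1, VIM, SNAI2, TWIST1, CD44 and YAP1 were at 1 CPM or more in every library, summing to 923 to 1451 CPM in untreated SK-N-AS and 37563 to 39145 CPM in untreated GIMEN. Untreated SK-N-AS also held the adrenergic markers PHOX2A, HAND2, GATA2, GATA3, ISL1 and DBH at 1 CPM or more in every library, which TH did not reach in each of them. GIMEN held HAND2, GATA2 and GATA3 at 1 CPM or more in every library, with PHOX2A and TH at the detection floor of 3 counts. These markers moved with treatment too. In S2D30 5 mesenchymal markers rose and 2 fell (median 1.57), and the 6 adrenergic markers named for untreated SK-N-AS fell, from −1.49 (GATA2) to −5.05 (DBH). In GIMEN D30 5 mesenchymal markers fell and 1 rose (median −0.71), and HAND2 and GATA2 fell (−1.05 and −1.51). Their part in the results for the inhibitors was not tested. Of the 10 leukocyte markers, CD3E was at or below 3 counts in each SK-N-AS group, and MS4A1 in each of the 6 groups, but PTPRC and CD68 were at 1 CPM or more in untreated SK-N-AS. The leukocyte list summed to 171 to 216 CPM in untreated SK-N-AS, 101.4 to 154 CPM in S2D30, 98.4 to 112 CPM in untreated GIMEN and 180 to 414 CPM in GIMEN D30, and its part in the results was not tested. The 5 Schwann cell markers summed to 0.921 to 8.88 CPM in the 6 groups. In bulk RNA a rise through a change in the share of cells and a rise in RNA per cell cannot be told apart. Replicates of a group differed by more than counting noise in all 30 pairs (chi-square per degree of freedom 2.73 to 122). In S2D4 replicate 4 stood apart, at 109 to 122 from the rest of its group, while the other 3 replicates differed by 3.77 to 6.27. Untreated SK-N-AS, the control of that line, was also widely spread. Its replicate 4 was at 50.9 to 113 from the others, which differed among themselves by 26.1 to 51.9. Results of the 7 inhibitor genes that turn on S2D4 replicate 4 are given with and without it. Genes of the other lists are given with all libraries only. The labels do not say that replicates were separate cultures, so p-values measure the spread between these libraries, which may be technical.

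Promoters of the genes with the largest changes, and of CDKN2A, are shown as the 250 bases before the start site. They read 5′ to 3′ on the gene's strand and come from RefSeq (GRCh38.p14), where 6 of the 7 genes had entries, 9 in all. A link between these sequences and the changes was not tested. Capitals mark GC boxes (GGGCGG or, on the other strand, CCGCCC) and CAGCTG E-boxes. CDKN1A (chr6:36678464-36678713, + strand) and CDKN2B (chr9:22009306-22009555, − strand) rose most in treated SK-N-AS, and CDKN2C (chr1:50968456-50968705, + strand, 1 of its 3 entries) fell in both lines. CDKN2A is shown at both starts, chr9:21995325-21995574 (the upstream one, used for ARF) and chr9:21974858-21975107 (used for p16), both on the − strand, because its count row sums both transcripts.
CDKN1A: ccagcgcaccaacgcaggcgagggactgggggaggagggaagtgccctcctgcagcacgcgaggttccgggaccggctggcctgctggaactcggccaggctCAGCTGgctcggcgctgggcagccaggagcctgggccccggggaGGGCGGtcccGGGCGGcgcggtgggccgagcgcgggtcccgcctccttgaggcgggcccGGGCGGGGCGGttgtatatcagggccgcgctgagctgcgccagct
CDKN2B: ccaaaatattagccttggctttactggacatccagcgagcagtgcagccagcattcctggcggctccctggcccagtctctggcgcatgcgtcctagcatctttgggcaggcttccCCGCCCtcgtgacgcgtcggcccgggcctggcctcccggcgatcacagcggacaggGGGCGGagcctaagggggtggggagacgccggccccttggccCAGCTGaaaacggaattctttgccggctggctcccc
CDKN2C: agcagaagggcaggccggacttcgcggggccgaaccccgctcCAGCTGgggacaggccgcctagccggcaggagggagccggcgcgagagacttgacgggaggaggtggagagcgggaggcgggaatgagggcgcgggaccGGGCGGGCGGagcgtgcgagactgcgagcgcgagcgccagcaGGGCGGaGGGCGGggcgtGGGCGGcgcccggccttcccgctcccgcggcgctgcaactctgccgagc
CDKN2A, upstream start: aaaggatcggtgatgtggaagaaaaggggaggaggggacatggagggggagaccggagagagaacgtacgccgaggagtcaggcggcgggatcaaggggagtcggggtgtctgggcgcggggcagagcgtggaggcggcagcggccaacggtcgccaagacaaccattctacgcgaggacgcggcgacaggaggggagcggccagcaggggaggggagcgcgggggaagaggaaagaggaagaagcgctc
CDKN2A, downstream start: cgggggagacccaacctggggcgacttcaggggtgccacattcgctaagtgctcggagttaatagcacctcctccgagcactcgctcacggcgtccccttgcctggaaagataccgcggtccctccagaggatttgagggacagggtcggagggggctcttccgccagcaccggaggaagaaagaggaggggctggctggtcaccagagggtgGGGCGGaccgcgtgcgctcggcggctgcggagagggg
Counting overlapping copies, the CDKN1A window held 4 GC boxes, the CDKN2C window shown 5, that of CDKN2B 2, the downstream CDKN2A window 1 and the upstream one 0. The other windows of CDKN2C had 0 and 1, that of CDKN1B 1 and that of CDKN2D 2. A GC box was in 42.6% of 35116 promoter windows of this length. The CAGCTG motif, in 13.99% of windows, occurred once in each of the CDKN1A, CDKN2B and CDKN2C windows shown and in none of the other 6 entries. The other motifs searched on both strands, with their share of windows, were CCAAT (32.0%), CACGTG (6.345%), TGACTCA (4.20%), GTAAACA (2.98%) and TTTGAA (13.3%). CCAAT had 2 matches in the CDKN1B window and 1 each in that of CDKN2D and in the third CDKN2C entry (chr1:50969995-50970244). CACGTG had 1 match each in the first (chr1:50960495-50960744) and the third CDKN2C entry, and the last 3 motifs had none in the 9 windows. These are letter matches, not binding sites.

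CDKN1A, whose protein p21 inhibits CDK2 complexes, rose at each comparison with untreated cells. Its libraries of untreated SK-N-AS held 13.4, 13.8, 11.5 and 9.80 CPM and those of S1D4 140, 147, 118 and 118 CPM. The S2D4 libraries held 505, 540, 537 and 634 CPM, and the S2D30 libraries 334, 392, 386 and 321 CPM. The 4 groups did not overlap, and S2D4 was the highest, above S2D30. Against untreated cells the log2 fold change was 3.40 ± 0.13 (SE) in S1D4 (adjusted p = 5.71e-11), then 5.47 ± 0.14 in S2D4 (5.76e-14) and 4.85 ± 0.14 in S2D30 (7.14e-14), folds of 10.6, 44.4 and 28.7. Between 4 and 30 days of stage 2 it fell by 0.63 on the log2 scale (SE 0.12, adjusted p = 0.000298). In GIMEN, where untreated libraries already held 236, 243 and 236 CPM, the D30 libraries held 531, 451 and 379 CPM. This rise, 0.90 ± 0.10 (adjusted p = 8.17e-06, 1.87-fold), started from a level 19.8-fold above untreated SK-N-AS (log2 difference SK-N-AS minus GIMEN −4.31 ± 0.14, adjusted p = 3.44e-14). Ordered by mean, the groups ran untreated SK-N-AS, S1D4, untreated GIMEN, S2D30, GIMEN D30 and S2D4. Neighbours among the last 3 overlapped.

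CDKN1B encodes p27, an inhibitor held mainly through protein turnover, and its RNA moved in opposite directions in the lines. In SK-N-AS the libraries held 77.4, 71.3, 73.0 and 77.5 CPM untreated and 68.7, 68.3, 72.3 and 73.2 CPM in S1D4. They held 41.3, 40.1, 40.9 and 48.1 CPM in S2D4 and 45.0, 51.4, 50.8 and 43.6 CPM in S2D30. Untreated and S1D4 libraries overlapped, and each stage 2 library was below both. The S1D4 difference of −0.11 ± 0.08 (95% interval −0.27 to 0.06, adjusted p = 0.287) did not pass the test, while S2D4 (−0.85 ± 0.08, adjusted p = 9.64e-08) and S2D30 (−0.69 ± 0.08, adjusted p = 6.78e-07) did. In GIMEN the level went from 32.1, 33.7 and 34.5 CPM to 67.3, 73.1 and 75.03 CPM. That was a rise of 1.07 ± 0.07 (adjusted p = 9.32e-08), after which GIMEN overlapped S1D4 and untreated SK-N-AS.

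CDKN1C, encoding p57, an imprinted inhibitor of embryonic and differentiating tissues, climbed stepwise in SK-N-AS. Untreated libraries held 4.45, 4.24, 5.25 and 5.07 CPM and S1D4 libraries 6.51, 6.22, 9.37 and 7.89 CPM. S2D4 libraries held 19.6, 23.2, 18.9 and 16.8 CPM and S2D30 libraries 31.5, 34.7, 37.7 and 34.3 CPM. No group overlapped the next. The log2 fold changes were 0.63 ± 0.14 in S1D4 (adjusted p = 0.00197), 2.01 ± 0.14 in S2D4 (3.76e-09) and 2.83 ± 0.14 in S2D30 (3.62e-11), and it rose further between days 4 and 30 of stage 2 (0.82 ± 0.13, adjusted p = 8e-05). In GIMEN CDKN1C was at the floor, with counts of 0, 0 and 1 in untreated libraries and 0 in each D30 library, and it was not tested there. Against a floor of 3 counts per library it was at least 30.2-fold higher in untreated SK-N-AS. Whether it changed in GIMEN was not detectable at this depth.

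Among INK4 genes, CDKN2B, whose product p15 is known as a mediator of arrest by TGF-β, changed most in the upward direction. Untreated SK-N-AS libraries held 4.72, 4.24, 2.004 and 2.11 CPM and S1D4 libraries 13.1, 11.9, 17.0 and 22.3 CPM. S2D4 libraries held 133, 133, 143 and 122 CPM, and S2D30 libraries 138, 135, 124 and 143 CPM. Stage 2 groups overlapped each other and lay far above S1D4. In both untreated SK-N-AS and S1D4, replicates 1 and 2 differed from replicates 3 and 4, with higher values untreated and lower values in S1D4. In S1D4 these pairs also stood apart over all genes (chi-square per degree of freedom 24.1 to 27.4 between pairs, 3.16 and 6.70 within). There the pairs did not overlap for any of the inhibitor genes. CDKN1A, CDKN2C and CDKN2D were higher in replicates 1 and 2, and the other members lower. The S1D4 results of all members carry this split, so their libraries may not be independent. For CDKN2B the log2 fold change was 2.25 ± 0.24 in S1D4 (adjusted p = 2.93e-06). With a term shared by replicates 3 and 4 of both groups, a check added after the data were seen, it was 2.27. A shared term cannot take up a split of opposite directions, so this value does not test that split. Against untreated cells the change was 5.29 ± 0.26 in S2D4 (adjusted p = 6.78e-11) and 5.31 ± 0.26 in S2D30 (2.43e-11), folds of 39.0 and 39.7. In GIMEN the libraries went from 74.5, 71.8 and 71.6 CPM to 370, 389 and 408 CPM, with a change of 2.39 ± 0.06 (adjusted p = 8.3e-11). Before treatment CDKN2B was 21.9-fold lower in SK-N-AS than in GIMEN (log2 difference −4.46 ± 0.20, adjusted p = 3.62e-12).

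CDKN2A, next to CDKN2B on chromosome 9, encodes p16 and, from another start and reading frame, ARF, which binds MDM2. It held 93.0, 72.0, 72.3 and 62.0 CPM in untreated SK-N-AS and 64.3, 61.0, 67.4 and 69.9 CPM in S1D4, which overlapped. It held 123, 151, 137 and 140 CPM in S2D4 and 147, 161, 163 and 138 CPM in S2D30, all above untreated. S1D4 did not pass the test (−0.22 ± 0.11, 95% interval −0.45 to 0.02, adjusted p = 0.134), although without untreated replicate 4 it did (−0.30, adjusted p = 0.0328). S2D4 (0.84 ± 0.11, adjusted p = 5.32e-06) and S2D30 (0.99 ± 0.11, 5.86e-07) were higher. GIMEN rose from 12.5, 13.2 and 14.9 CPM to 36.1, 42.3 and 37.4 CPM (1.49 ± 0.10, adjusted p = 1.09e-07), and stayed below each SK-N-AS library. In the GENCODE v29 annotation 7.88% of CDKN2A exon bases lie opposite an antisense gene, CDKN2B-AS1, and 4.79% of CDKN1A bases opposite DINOL. Whether counting used strand is not given in the sources used here, so reads of these stretches cannot be assigned.

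CDKN2C, encoding p18, which is induced with E2F activity in dividing cells, was the gene that fell in both lines. Untreated SK-N-AS libraries held 108, 102, 125 and 98.7 CPM and S1D4 libraries 98.1, 95.7, 90.03 and 85.3 CPM. S2D4 libraries held 9.97, 11.3, 11.2 and 9.59 CPM and S2D30 libraries 7.28, 9.26, 11.1 and 5.13 CPM. Treated GIMEN libraries had 7.05, 6.22 and 6.42 CPM, against 98.4, 103 and 103 CPM untreated. Untreated lines overlapped, as did S2D30 with both S2D4 and GIMEN D30. S1D4 lay below untreated cells without overlap but did not pass the test (−0.26 ± 0.15, adjusted p = 0.195). The falls were −3.40 ± 0.17 in S2D4 (adjusted p = 8.77e-11), −3.77 ± 0.18 in S2D30 (1.27e-11) and −3.98 ± 0.08 in GIMEN D30 (6.96e-12), or 10.6-fold, 13.6-fold and 15.7-fold lower.

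CDKN2D, encoding p19, rose in GIMEN D30 and, by less, in S2D30. In SK-N-AS it held 11.5, 10.8, 13.4 and 10.9 CPM untreated, and 17.0, 18.6, 14.6 and 13.3 CPM in S1D4. It held 8.80, 12.5, 9.46 and 19.2 CPM in S2D4 and 21.8, 16.6, 16.9 and 21.2 CPM in S2D30. The S2D4 value of 19.2 CPM is from replicate 4, the library that stood apart. S2D30 was higher than untreated (0.68 ± 0.20, adjusted p = 0.00656), whereas S1D4 (0.42 ± 0.20, adjusted p = 0.111) and S2D4 (0.07 ± 0.20, adjusted p = 0.779) did not pass. Without S2D4 replicate 4 the S2D4 value turned to −0.22 (adjusted p = 0.222), and the S2D4 against S1D4 difference of −0.35 (adjusted p = 0.153) became −0.64 (adjusted p = 0.00198). GIMEN rose from 11.6, 10.7 and 11.8 CPM to 31.7, 31.8 and 28.8 CPM (1.41 ± 0.09, adjusted p = 7.55e-08), above all SK-N-AS libraries.

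**Figure D1:**
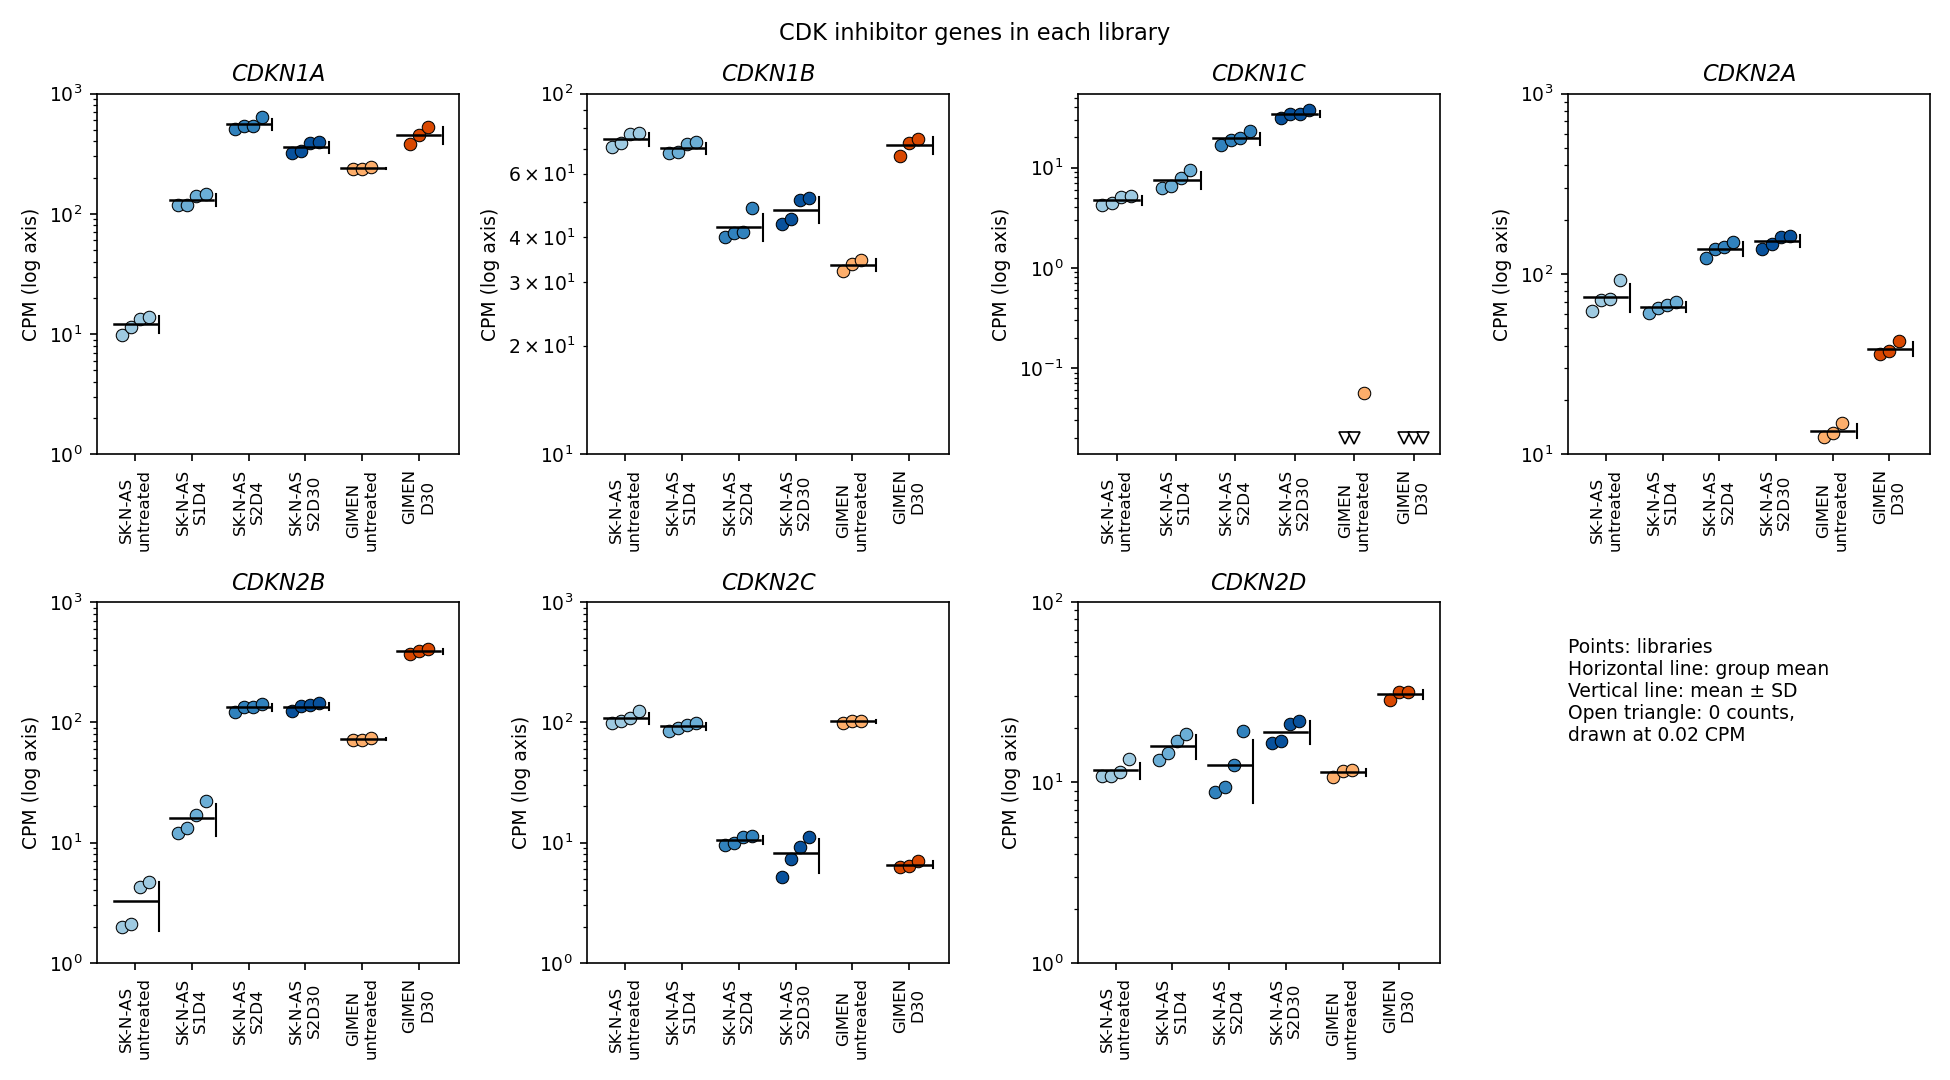
Level of each CDK inhibitor gene in each of the 22 libraries (y axis, CPM on a log axis; x axis, group). Points are libraries, horizontal lines group means and vertical lines mean ± SD, and open triangles are libraries with 0 counts drawn at an arbitrary low value; CDKN1A and CDKN2B are lowest in untreated SK-N-AS, CDKN2C is lowest in stage 2 and GIMEN D30, and CDKN1C is near 0 in GIMEN.

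Counted together, 3 of 7 genes were called in S1D4, each higher, where 40.1% of all tested genes were called (17.6% higher and 22.4% lower). In S2D4 6 of 7 were called, 4 higher and 2 lower, against 63.1% of all genes (30.9% higher and 32.2% lower). In S2D30 7 of 7 were called, 5 higher and 2 lower, against 70.3%, and the shares of all genes in each direction were 33.8% higher and 36.5% lower. In GIMEN D30 the 6 tested genes were called, 5 higher and 1 lower, against 71.4% (35.5% higher and 36.0% lower). In S1D4 the share called is close to the background, and in the other 3 comparisons it is above it, over 6 or 7 genes and with no test. Libraries did not overlap for 4, 6 and 7 genes in S1D4, S2D4 and S2D30 and for 6 genes in GIMEN D30, against 38.3%, 51.2%, 66.4% and 75.4% of all genes. The median log2 fold change of the tested members was 0.42, 0.84, 0.99 and 1.24, against −0.01, −0.02, −0.03 and 0.02 over all tested genes.

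**Figure D2:**
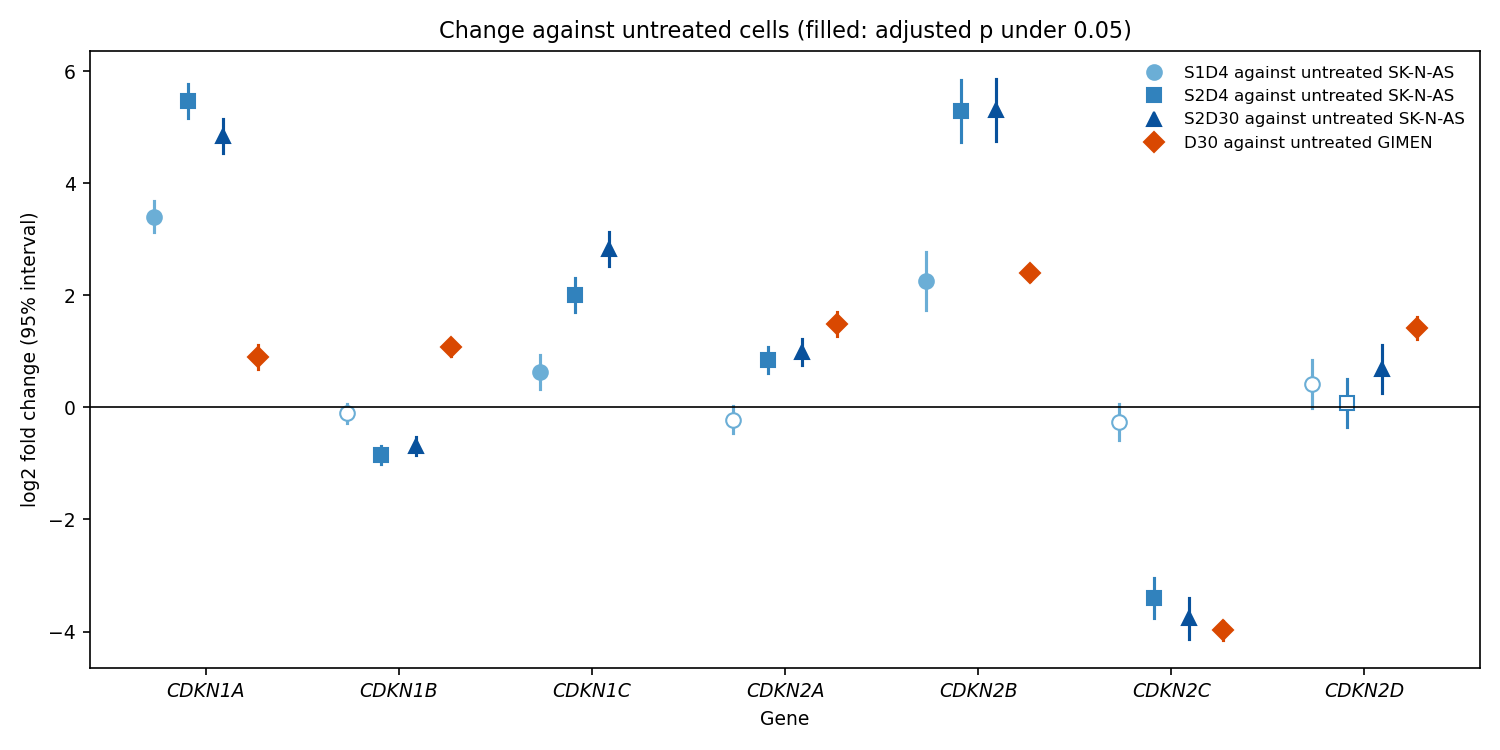
log2 fold change against untreated cells of the same line (y axis) for each CDK inhibitor gene (x axis), with 95% intervals; filled symbols have an adjusted p under 0.05, and CDKN1C was not tested in GIMEN. CDKN1A and CDKN2B reach 5.47 and 5.31 in SK-N-AS stage 2, CDKN2C falls below −3 in stage 2 and GIMEN D30, and CDKN1B has opposite signs in S2D30 and GIMEN D30.

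The move from stage 1 to stage 2 was compared between S2D4 and S1D4, where 6 genes were called, 4 higher and 2 lower, against 55.1% of all genes (28.3% higher and 26.8% lower). Libraries of 6 genes did not overlap, against 49.5% of all genes. Bufalin, medium, serum and time in treatment changed together at this step, and their contributions cannot be told apart. CDKN2B (3.04 ± 0.23, adjusted p = 1.98e-08) and CDKN1A (2.07 ± 0.12, 1.28e-09) rose most, and CDKN2C fell by 3.14 on the log2 scale (SE 0.17, adjusted p = 5.63e-10). From day 4 to day 30 of stage 2, 3 genes were called against 51.3% of all genes (24.4% higher and 26.9% lower), and libraries of 2 did not overlap, against 50.3%. CDKN1C and CDKN2D (0.61 ± 0.20, adjusted p = 0.0185) were higher and CDKN1A lower. The CDKN2D call was lost when S2D4 replicate 1 or 3 or S2D30 replicate 1 or 4 was left out (adjusted p 0.0523 to 0.0656). CDKN2B differed by 0.02 ± 0.21 between these groups (95% interval −0.42 to 0.47, adjusted p = 0.934). All comparisons with untreated SK-N-AS share its 4 libraries.

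The untreated lines differed in 5 of the 7 genes, against 73.9% of all genes (38.6% higher and 35.3% lower in SK-N-AS). Libraries of the same number, 5, did not overlap, against 71.7%. CDKN1B (1.14 ± 0.08, adjusted p = 1.56e-09), CDKN2A (2.46 ± 0.14, 6.76e-11) and CDKN1C were higher in SK-N-AS, and CDKN1A and CDKN2B were lower. CDKN2C (0.08 ± 0.15, 95% interval −0.24 to 0.40, adjusted p = 0.661) and CDKN2D (0.02 ± 0.13, −0.25 to 0.29, adjusted p = 0.902) did not pass the test. The difference between the 30-day changes was then tested as an interaction. It was called for 5 genes, against 49.7% of all genes (24.5% with a positive and 25.2% with a negative difference). On the log2 scale, CDKN1A (3.93 ± 0.18, adjusted p = 6.04e-11) and CDKN2B (2.89 ± 0.27, 1.58e-07) rose more in SK-N-AS. On the same scale CDKN1B (−1.78 ± 0.11, 2.43e-09), CDKN2D (−0.74 ± 0.18, 0.00209) and CDKN2A (−0.52 ± 0.18, 0.0264) rose more, or rose in place of falling, in GIMEN. In mean CPM the order was reversed for CDKN2B (3.27 to 135 in SK-N-AS, 72.6 to 389 in GIMEN). It was also reversed for CDKN2A (74.8 to 152 in SK-N-AS, 13.5 to 38.6 in GIMEN), but not for the other genes called. The CDKN2A call was lost without any of 4 libraries (S2D30 replicate 4, GIMEN untreated replicate 1 or 2, or GIMEN D30 replicate 2), with adjusted p 0.0501 to 0.0803. CDKN2C showed a difference of 0.19 ± 0.24 (95% interval −0.33 to 0.71, adjusted p = 0.554). No interaction is given for CDKN1C, which was at the floor in GIMEN. The lines also differed in dose, medium and stage 1, which cannot be told apart from the line.

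To compare levels between genes, CPM were divided by exon length in kilobases from the GENCODE v29 basic annotation. This length joins the exons of all basic transcripts of a gene, so shares and ranks depend on which transcripts the cells express. Untreated SK-N-AS had a summed level of 100.4 ± 6.91 CPM per kb (SD, n = 4) for the 7 genes, and S1D4 one of 146 ± 5.27. The sum reached 335 ± 25.9 with S2D4 and 276 ± 17.6 with S2D30. It was 168 ± 1.79 (n = 3) in untreated GIMEN and 339 ± 24.9 in D30. In untreated SK-N-AS CDKN2C led with 32.5% of the sum, ahead of CDKN1B at 28.1% and CDKN2A at 23.5%, and CDKN1A made up 4.82%. CDKN1A was the largest member in the other 5 groups, at 35.7%, 65.8% and 51.8% in S1D4, S2D4 and S2D30 and at 56.5% and 53.1% in untreated and treated GIMEN. CDKN2C fell to 0.885% of the sum in S2D30 and 0.585% in GIMEN D30. CDKN2B went from 0.804% to 12.2% in S2D30 and, in GIMEN, from 10.7% to 28.6%. The INK4 sum was 64.9 ± 6.56 CPM per kb in untreated SK-N-AS and 96.9 ± 1.45 in S2D30, and 60.5 ± 0.854 and 131 ± 4.17 in untreated and treated GIMEN.

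**Figure D3:**
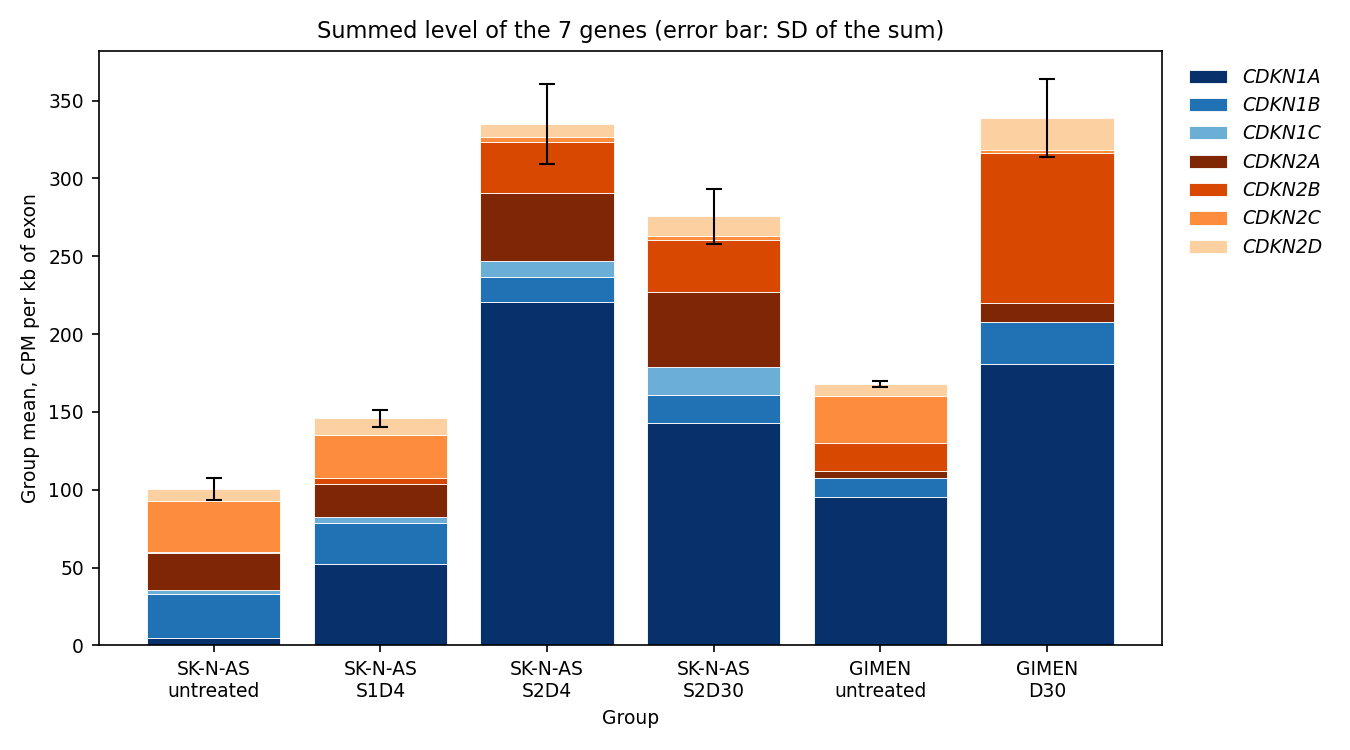
Stacked mean level of the 7 genes in each group (y axis, CPM per kb of exon; x axis, group), CIP/KIP genes in blue and INK4 genes in orange, with error bars of 1 SD of the sum. The sum is 100.4 in untreated SK-N-AS and 335 in S2D4, and CDKN1A forms the largest band in each group other than untreated SK-N-AS.

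The kinases and cyclins on which these inhibitors act mostly moved down. The counts of the lists are to be read against all tested genes, of which 33.8% were higher and 36.5% lower in S2D30 and 35.5% higher and 36.0% lower in GIMEN D30. Of 12 cyclin and CDK genes, 10 fell and 2 rose in S2D30 (median log2 fold change −2.32, against −0.03 over all genes), and in GIMEN D30 10 of 11 tested fell and 1 rose (median −3.14). CDK1, the mitotic kinase, fell in S2D30 and GIMEN D30 (−8.20 and −6.11), and so did CDK4 (−0.42 and −0.84). CCND1, encoding cyclin D1, rose by 2.05 in S2D30 and 0.34 in D30, after a fall in S1D4 (−0.58). Of 13 RB and E2F family genes, 10 fell and 2 rose in S2D30 (median −0.71) and 8 fell and 2 rose in D30 (median −0.39), with E2F1 at −4.62 and −3.03. Of 11 other regulators of CDK activity 7 fell and 1 rose in S2D30 and 8 fell in D30. Among them CDKN3, a phosphatase acting on CDK2, changed by −5.40 and −6.00. Among 10 proliferation markers, 10 fell in S1D4, S2D30 and GIMEN D30 and 9 in S2D4, with medians of −1.76, −5.51, −5.65 and −2.81. Their summed level went from 1551 to 1780 CPM in untreated SK-N-AS to 280 to 286 CPM in S2D30, and from 2516 to 2537 CPM to 159 to 179 CPM in GIMEN. These genes changed with the inhibitors, and their part in the result was not tested.

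Of 13 genes that govern breakdown of CIP/KIP proteins, 10 fell and 2 rose in S2D30 (median −0.76), and 8 fell and 2 rose in GIMEN D30 (median −0.34). In GIMEN D30 the number called, 10 of 13, is near the 71.4% of all genes. SKP2, the F-box protein that recognises p27, fell in each comparison, with log2 fold changes of −1.30, −2.61 and −4.06 in S1D4, S2D4 and S2D30 and −2.10 in D30. Protein was not measured. Of 20 transcription regulators of CIP/KIP genes 18 were tested in SK-N-AS, and 9, 9 and 12 rose in S1D4, S2D4 and S2D30, with 3, 2 and 2 lower, where 17.6%, 30.9% and 33.8% of all genes were higher. In GIMEN 16 were tested, 9 higher and 4 lower, where 35.5% of all genes were higher. EGR1 rose by 2.49, 5.84, 5.52 and 2.67 in S1D4, S2D4, S2D30 and D30, KLF4 by 0.94, 4.86, 4.31 and 1.77, and FOXO1 by 1.42, 2.15, 2.13 and 2.95. SMAD3 rose in the 3 SK-N-AS comparisons (1.495, 1.86 and 1.66) and fell in GIMEN (−0.57).

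Of 13 regulators of the CDKN2A and CDKN2B locus, mostly Polycomb subunits that silence it, 5 rose and 2 fell in S2D30 (median 0.04), and 5 rose and 6 fell in GIMEN D30 (median −0.12). In S2D30 the number called, 7 of 13, is below the 70.3% of all genes, and the number higher is near its 33.8%. EZH2, the H3K27 methyltransferase, fell in the 3 SK-N-AS groups and in D30 (−1.07, −1.81, −2.77 and −3.27). CBX7, a subunit that represses the locus, rose by 0.95, 1.45, 3.12 and 3.33. KDM6B, an H3K27 demethylase, was higher in S2D4, S2D30 and D30 (1.61, 1.67 and 1.49). ETS1, an activator of CDKN2A, was 2.58 and 2.83 higher in S2D4 and S2D30 and lower in D30 (−0.82). Of the neighbours of CDKN2A, CDKN2B and CDKN1C, 5 of 8 were tested. DMRTA1, beside CDKN2B, rose by 2.70 and 2.83 in S2D4 and S2D30, while GIMEN D30 (0.38) was not called. MTAP, on the other side of CDKN2A, was higher in S2D4 (0.61) and was at 0.01 in S2D30. SLC22A18, directly beside CDKN1C, was higher in S1D4, S2D4 and S2D30 (0.85, 0.89 and 1.28) and also in GIMEN D30 (1.53), where CDKN1C was at the floor. PHLDA2, further along, rose by 1.05, 5.20 and 5.08 in the SK-N-AS groups and was at −0.05 without a call in GIMEN D30. NAP1L4 was lower in S1D4, S2D4 and GIMEN D30 (−0.54, −0.66 and −0.66) and at −0.18 without a call in S2D30.

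**Figure D4:**
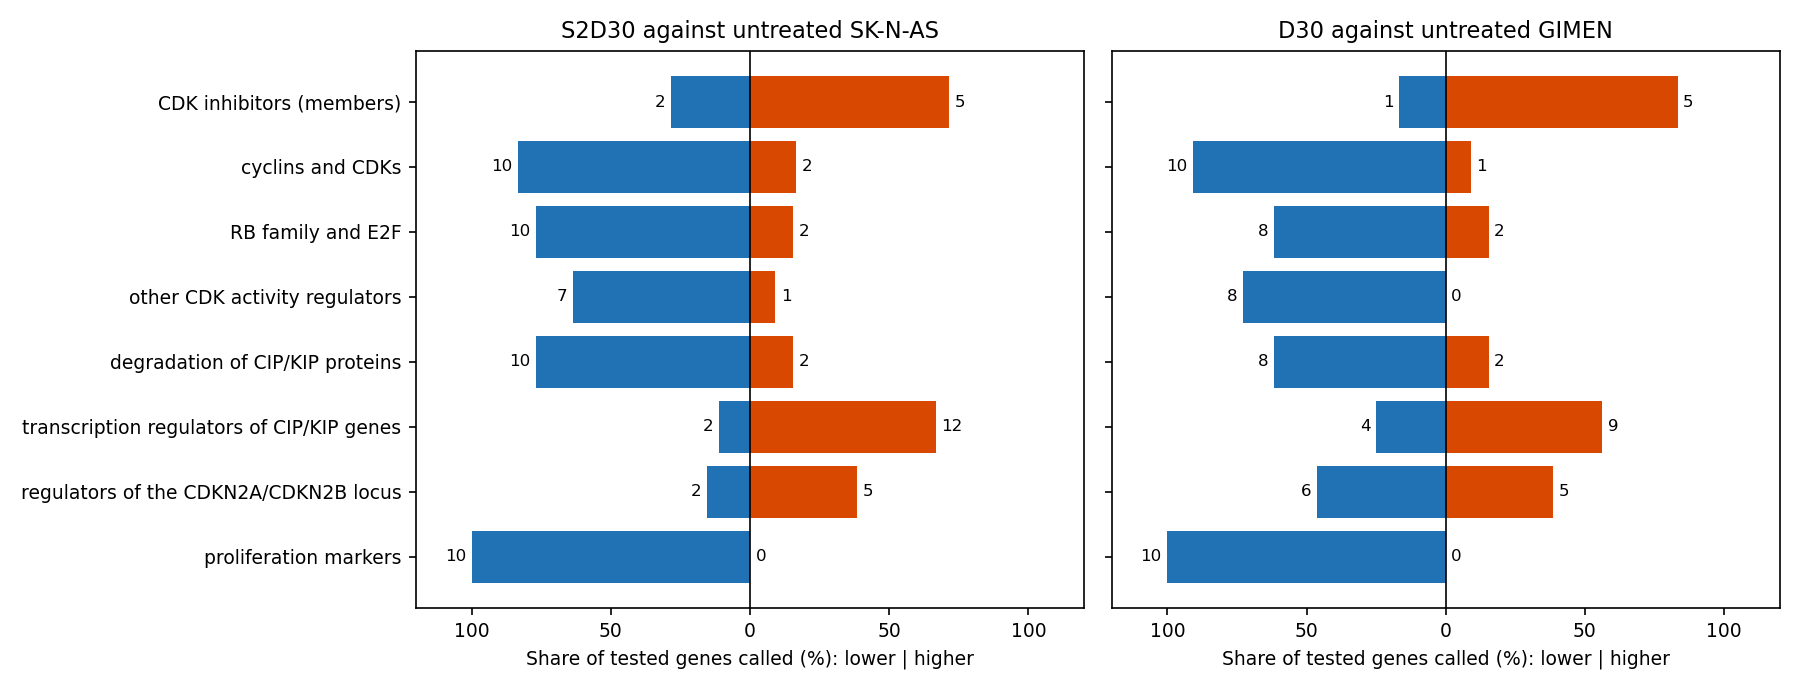
Share of the tested genes of each list (x axis, percent) called lower (blue, left) or higher (orange, right), with the number of genes at each bar, for S2D30 (left panel) and GIMEN D30 (right panel); lists are on the y axis. The CDK inhibitors lean higher (5 against 2 and 5 against 1) while cyclins and CDKs lean lower (10 against 2 and 10 against 1).

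The genes most like each member over the 6 group means were found by the root mean square (RMS) difference of centred log2 CPM, among 13953 genes. CDKN1A and CDKN2B shared their nearest gene, NDRG1, a stress-inducible gene (RMS 0.56 and 0.47), whose means were 6.74, 33.5, 234 and 158 CPM in the 4 SK-N-AS groups and 164 and 375 CPM in GIMEN. For CDKN2B, KLF4 followed (0.52). CDKN2C was nearest to PCYT1B (0.42) and ASB9 (0.44), CDKN1C to FERMT3 (0.31) and CDKN2A to PCDH12 (0.20). CDKN1B and CDKN2D varied least of the members over the 6 group means (SD 0.44 and 0.51 on the log2 scale). Their nearest genes were ZSCAN16 (0.10) and APP (0.07). These distances describe 6 points and carry no test.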

How the data were processed

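Total RNA of 16 SK-N-AS and 6 GIMEN libraries was treated with DNase and sequenced paired-end, per the labels' protocols. The authors deposited raw counts per gene, whole numbers in 35237 rows named by symbol. The aligner, counting tool, build and strand setting are not given in the sources used here. Groups come from the labels. Depth was 16456484 to 37506800 counts per library, and reads carried no molecular identifiers, so floors cover counting error only.

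Counts were tested in R 4.3.3 with edgeR 4.0.16 (filterByExpr with a minimum count of 10 and total of 15, TMM scaling, glmQLFit and glmQLFTest), in models of the SK-N-AS libraries (15810 genes), the GIMEN libraries (13517) and the untreated and 30-day libraries of both lines (16246). P-values were adjusted by Benjamini-Hochberg over all genes of a model, at 0.05. A group was at the floor with at most 3 counts in each library. Levels used 1 TMM scaling of 22 libraries and, between genes, GENCODE exon lengths. Genes named are the 7 members, members of the lists, chromosome neighbours and the 3 nearest patterns per member with a mean of at least 1 CPM. Some listed genes and 1 list are not reported here. The members and lists were chosen with earlier results of these data known. The script was tested on simulated data. Alternatives were other scalings, DESeq2 1.42.0, other filters, the compared groups alone, a replicate block, leaving out each library and an added replicate term.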

Additional observations from a re-analysis of the deposited data

Results flagged for a closer look

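In S2D4, CDKN1B in replicate 4 stood apart, at 48.1 CPM against 40.1 to 41.3 CPM in the other 3 libraries. Of 28 sets of 1 gene in 1 group of 4 libraries, chance alone gives about 1 in 20 such gaps. Replicate 4 also had the highest CDKN2D of its group (19.2 CPM).

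For 5 genes the change over 30 days differed between the lines by the interaction test in edgeR, as log2 differences of SK-N-AS minus GIMEN. The values were 3.93 for CDKN1A, −1.78 for CDKN1B, −0.522 for CDKN2A, 2.89 for CDKN2B and −0.745 for CDKN2D. For CDKN1B the signs are opposite, with each S2D30 library below untreated SK-N-AS and each D30 library above untreated GIMEN. The treatments of the lines differed, and the line cannot be told apart from dose, medium and stage 1.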

How the results depend on the processing

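Of 877 values of 55 gene results under the alternatives, 855 kept their direction and side of the threshold, 8 lost the call, 8 gained it and 6 changed sign. The counts of called members stayed within 1.5 times the reported ones, from 3 to 4 in S1D4, 6 to 7 in S2D4 against S1D4, 2 to 4 in S2D30 against S2D4 and 4 to 5 for the interaction when 1 library was left out. Over all genes, leaving out 1 library gave 5405 to 6872 called in S1D4.

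The sign changes were of values near 0. CDKN2D in S2D4 against untreated was −0.0107 with upper-quartile scaling, and from −0.22 (without S2D4 replicate 4) to 0.207 when 1 library was left out. CDKN2B in S2D30 against S2D4 ran from −0.0174 (without S2D4 replicate 4) to 0.0653, with −0.00486 without S2D30 replicate 4. CDKN2D between the untreated lines ran from −0.0523 (without SK-N-AS replicate 3) to 0.0681, with −0.0351 without GIMEN replicate 2. The cause was not tested. Gained calls beside those in the text were CDKN2D in S1D4 with the compared groups alone (adjusted p = 0.0207) and in S2D4 against S1D4 with upper-quartile scaling (0.0495). In S2D30 against S2D4 they were CDKN1B with upper-quartile scaling (0.0144) and without S2D4 replicate 4 (0.017), and CDKN2C without S2D30 replicate 3 (0.00993).

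Replicate numbers were not taken to pair the libraries, since no 2 groups had a correlation of deviations above 0.1 for every number. Correlations ran from −0.10 to 0.29 over 24 SK-N-AS pairs, 4 of them above 0.1, and from −0.02 to 0.01 over 3 GIMEN pairs. Between S1D4 and untreated SK-N-AS they were 0.27, 0.27, 0.04 and 0.29 for replicates 1 to 4, and replicates 1, 2 and 4 matched their own number best, a hint of shared deviations in those groups. The block left 3 members called there. With a replicate block, CDKN2C in S2D30 against S2D4 gained a call (−0.39, adjusted p = 0.029), 4 members were called there against 3, and no other member call changed. Depth limits CDKN1C in GIMEN, which was at the floor.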
